A study of Homo sapiens with 12 samples.

Results

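The genes described here are the 9 that encode the hypoxia-inducible factor (HIF) subunits and the enzymes that sense oxygen for them: HIF1A, EPAS1, ARNT, ARNT2, VHL, EGLN1, EGLN2, EGLN3 and HIF1AN. The rule is their names and uses no measured value, though the set was chosen with earlier results of these data known. All 9 are among the 26475 gene symbols of the count table. RNA was sequenced from MIAPaCa2, an established pancreatic ductal adenocarcinoma cell line, in 4 groups of 3 libraries. Parental cells received vehicle or oxamate, and oxamate-resistant cells received vehicle or oxamate. Sodium oxamate is a competitive inhibitor of lactate dehydrogenase A (LDHA), the enzyme that turns pyruvate into lactate. The resistant cells descend from the parental line and had been kept in sodium oxamate for weeks until surviving colonies could be taken, so they stand for 1 selection from 1 line. No gene was deleted and no transgene was introduced in any group. The sample labels call the groups without oxamate untreated, and the dose and duration of the treatment before RNA extraction were not given in the sources used here.

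HIF is a transcription factor made of an oxygen-sensitive alpha subunit and a stable beta subunit. HIF1A and EPAS1 (HIF-2 alpha) are alpha subunits, and ARNT (HIF-1 beta) and its relative ARNT2 are beta subunits. When oxygen is available, the prolyl hydroxylases encoded by EGLN1, EGLN2 and EGLN3 (PHD2, PHD1 and PHD3) hydroxylate the alpha subunits, and the VHL protein, the recognition subunit of a ubiquitin ligase, then marks them for degradation. The asparaginyl hydroxylase encoded by HIF1AN (factor inhibiting HIF) blocks their binding to coactivators. All of these hydroxylases use oxygen, iron and 2-oxoglutarate. The system acts largely on the protein, which RNA counts do not measure, and EGLN1 and EGLN3 are themselves known HIF target genes. In pancreatic cancer cells HIF is known for its control of glycolytic genes, LDHA among them.

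HIF binds the core letters ACGTG or GCGTG, and the members whose RefSeq promoter window holds such a core are shown because the level of a known HIF target is one of the quantities compared below. In the 250 bases before the RefSeq transcript start (GRCh38.p14), read on both strands, 4 of the 9 windows of 7 members held a core, a share near the 43.2% of 35116 windows of all genes, and 83.0% of the 53 windows of known HIF targets held one. The core is in capitals and each sequence runs 5′ to 3′ on the strand of the core given. In EGLN2 an ACGTG on each strand overlaps to form CACGTG.
HIF1A, chr14:61695299-61695323, plus strand: gctgagagcgGCGTGggctggggtg
EPAS1, chr2:46297280-46297304, plus strand: gcctgccggcGCGTGcccgcccaca
EGLN1, chr1:231422286-231422310, minus strand: gccgtggtgtACGTGcagagcgcgc
EGLN2, chr19:40799132-40799157, plus strand: ggggcgcggtCACGTGcccaccgggc
The core of HIF1A began 204 bases before the start, that of EPAS1 117, that of EGLN2 49 and that of EGLN1 13. The EGLN1 site lay inside an annotated exon, as did all 250 bases of its window. On the minus strand the annotated gene already begins at 231425044, so this window precedes a RefSeq start but not the outermost annotated start. The other sites lay in no annotated exon. No core was found in the windows of ARNT, EGLN3 and HIF1AN or in the other window of HIF1A and of EGLN2. A match is a description of the letters and does not show binding.

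The libraries held between 46698729 and 114222169 expected counts in all, and every parental library was deeper than every resistant one. Levels are given as CPM, counts on a common library size after TMM scaling, which corrects for differences in RNA composition between libraries, and a floor of 3 counts corresponded to 0.0283 to 0.0581 CPM. Floors cover counting error only. The line's keratin genes were abundant (KRT18 from 731 to 1358 CPM), whereas the epithelial genes CDH1 and EPCAM reached at most 0.0387 and 0.0503 CPM. Of 12 markers of other cell types, COL1A2 (693 to 950 CPM) and CD68 (56.4 to 220.2 CPM) were well expressed. COL1A1 (0.901 to 2.03 CPM) and CDH5 (0.386 to 0.957 CPM) were low. The others, PTPRC, DCN, INS and PRSS1 among them, reached at most 0.159 CPM. Replicate 3 of oxamate-treated parental cells and replicate 3 of vehicle-treated resistant cells stood apart from their groups in the nuclear RNA MALAT1, at 596 and 597 CPM against 289 or less in the other libraries of those groups. Oxamate-treated resistant libraries held 577 to 742 CPM of it. Below, "both libraries high in MALAT1" means the replicates 3 that stood apart from their groups. Without them the vehicle-treated resistant libraries held 244 and 273 CPM, so the resistant groups then differed in MALAT1 without overlap. Nothing in the labels says that libraries of a group came from separate cultures, so the p-values measure the spread between these libraries, which may be technical.

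Of the 9 genes, 8 passed the filter on low counts and entered the test of 14582 genes. HIF1A had the highest level for its length in all 4 groups and ARNT2 the lowest. Per kilobase of the longest annotated transcript, HIF1A ranged from 44.2 ± 0.390 CPM per kb (SD, n = 3) in vehicle-treated resistant cells to 55.2 ± 1.28 in vehicle-treated parental cells. EPAS1, the other alpha subunit, stayed between 2.04 and 2.17 CPM per kb in the group means. Between these lay ARNT (15.04 to 19.8), EGLN2 (15.3 to 20.2), VHL (12.6 to 22.4), EGLN1 (9.42 to 14.9) and HIF1AN (4.07 to 5.59). EGLN3 followed at 0.0413 to 0.241 CPM per kb and ARNT2 at 0.00890 to 0.0196.

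VHL moved up this order between the lines. It stood in rank 4 in vehicle-treated and rank 5 in oxamate-treated parental cells, and in rank 2 in both resistant groups. ARNT and EGLN2 were neighbours whose libraries overlapped in the vehicle-treated parental group (18.9 to 19.1 and 16.7 to 19.6 CPM per kb), so their order there was within the spread. The ranks of ARNT, EGLN2, EGLN1 and VHL among themselves also depended on the length used. With the length of all exons together, EGLN2 dropped to rank 4 or 5, but VHL stayed in rank 2 in both resistant groups and HIF1A in rank 1 throughout. Among the 3 prolyl hydroxylases, EGLN2 made up 57.5% to 63.6% of their summed level per kb, EGLN1 35.9% to 42.4% and EGLN3 0.117% to 0.961%. These shares hold for the longest transcript only. With all exons together EGLN1 was above EGLN2 in parental cells after vehicle (11.1 against 10.8 CPM per kb) and oxamate (14.6 against 12.0). In resistant cells it was above EGLN2 after oxamate (9.34 against 9.07) and below it after vehicle (9.20 against 9.88).

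**Figure D1:**
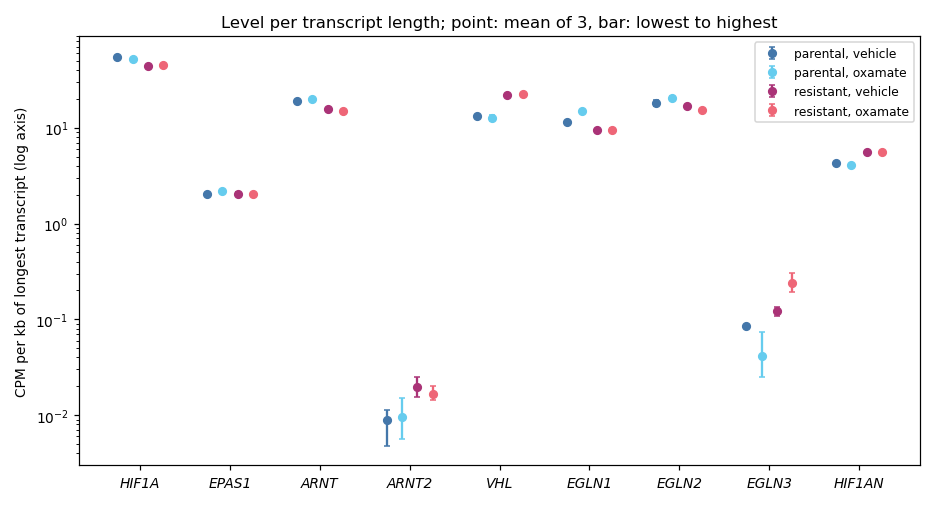
Level of each gene in CPM per kb of its longest transcript on a log axis, by group; points are means of 3 libraries and bars run from the lowest to the highest library. HIF1A sits at the top between 44.2 and 55.2 in every group, VHL rises past its neighbours in the resistant groups, and the group means of EGLN3 and ARNT2 reach at most 0.241.

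HIF1A (chr14:61695513-61748259, plus strand, GRCh38, as for all gene positions below) encodes the alpha subunit that is present in most cells. In vehicle-treated parental cells it measured 213, 219 and 223 CPM, and after oxamate 209, 207 and 204 CPM. In resistant cells it measured 175, 176 and 173 CPM after vehicle and 175, 181 and 178 CPM after oxamate. All 6 resistant libraries lay below all 6 parental libraries. HIF1A was lower in resistant than in parental cells after vehicle by a log2 fold change of −0.32 (SE 0.02, edgeR quasi-likelihood test with Benjamini-Hochberg adjustment over 14582 genes, adjusted p = 5.92e-09) and after oxamate by −0.21 (SE 0.02, edgeR adjusted p = 4.99e-07). Scaled by library size only, the second difference turned to 0.11, while the median of all genes moved to 0.34 under that scaling.

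Oxamate lowered HIF1A slightly in parental cells, by −0.08 on the log2 scale (SE 0.02, edgeR adjusted p = 0.00952), and all 3 treated libraries lay below the 3 vehicle libraries. In resistant cells the log2 fold change was 0.02 (95% interval −0.02 to 0.07, edgeR adjusted p = 0.492) and the groups overlapped. The responses of the lines differed by 0.10 (SE 0.03, edgeR adjusted p = 0.0205). That call was lost without replicate 2 of oxamate-treated resistant cells (0.09, edgeR adjusted p = 0.0563) and without both libraries high in MALAT1 (0.09, edgeR adjusted p = 0.0544).

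EPAS1 (chr2:46293667-46386703, plus strand) encodes HIF-2 alpha, the alpha subunit best known from endothelium and clear cell kidney tumours. Vehicle-treated parental libraries held 10.5, 10.6 and 10.5 CPM, and oxamate-treated ones 10.9, 11.6 and 11.2 CPM. Vehicle-treated resistant libraries held 10.2, 10.5 and 11.0 CPM, and oxamate-treated ones 10.8, 10.7 and 10.2 CPM. EPAS1 passed the threshold in none of the 5 comparisons with edgeR at 14582 genes, nor at an unadjusted p under 0.05. Between the lines its log2 fold change was 0.01 after vehicle (95% interval −0.08 to 0.10, edgeR adjusted p = 0.872) and −0.09 after oxamate (95% interval −0.18 to 0.01, edgeR adjusted p = 0.1). With library size alone it was 0.23 (edgeR adjusted p = 0.000329) and 0.24 (edgeR adjusted p = 0.000265), both past the threshold and below the shift of all genes under that scaling (0.24 and 0.34).

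ARNT (chr1:150809705-150876768, minus strand) encodes the beta subunit with which both alpha subunits pair. It measured 93.3, 92.4 and 93.2 CPM in vehicle-treated parental libraries and 97.4, 96.1 and 97.3 CPM after oxamate. In resistant libraries it measured 76.0, 74.8 and 78.2 CPM after vehicle and 70.7, 74.7 and 75.1 CPM after oxamate. As for HIF1A, no resistant library reached the lowest parental one. ARNT was lower in resistant cells by −0.28 after vehicle (SE 0.03, edgeR adjusted p = 1.06e-07) and by −0.40 after oxamate (SE 0.03, edgeR adjusted p = 1.23e-09). With library size alone the vehicle difference was −0.06 (edgeR adjusted p = 0.0594). Oxamate did not move ARNT past the threshold in either line, with 0.06 in parental cells (edgeR adjusted p = 0.066) and −0.05 in resistant cells (edgeR adjusted p = 0.178). The parental value passed it with upper-quartile factors (0.07, edgeR adjusted p = 0.0302), with a minimum mean count of 25 (0.0434) and without replicate 1 of oxamate-treated resistant cells (0.0479). The difference of these responses was −0.11 (SE 0.04, edgeR adjusted p = 0.0249). It missed the threshold without replicate 2 of vehicle-treated parental cells (edgeR adjusted p = 0.058), replicate 3 of vehicle-treated resistant cells (0.0632) or replicate 1 of oxamate-treated resistant cells (0.0779), and without both libraries high in MALAT1 (0.0746). Under library size alone it was −0.00965 (edgeR adjusted p = 0.878).

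ARNT2 (chr15:80404350-80597937, plus strand), a beta subunit known mainly from neurons, was near the limit of detection and did not pass the filter. Its counts were 8, 7 and 2 in vehicle-treated and 3, 2 and 7 in oxamate-treated parental libraries. They were 6, 10 and 7 in vehicle-treated and 5, 7 and 6 in oxamate-treated resistant libraries. These levels were 0.0322 to 0.101 CPM in parental and 0.0957 to 0.168 CPM in resistant cells, and the lines overlapped after oxamate. Without the filter, the log2 fold change between the lines after vehicle was 1.03 (edgeR adjusted p = 0.0748 over 19860 genes).

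VHL (chr3:10141008-10152220, plus strand) was higher in resistant cells than in parental cells in every library. Parental libraries held 49.1, 50.2 and 48.9 CPM after vehicle and 43.6, 47.2 and 50.1 CPM after oxamate. Resistant libraries held 84.0, 82.6 and 81.0 CPM after vehicle and 83.4, 83.4 and 84.6 CPM after oxamate. The fold was 1.67 after vehicle (log2 0.74, SE 0.04, edgeR adjusted p = 4.88e-11) and 1.78 after oxamate (log2 0.83, SE 0.04, edgeR adjusted p = 7.64e-12). It passed 1.5-fold in both line comparisons, and both calls held in all alternatives that were run.

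Oxamate did not move VHL past the threshold in either line. The log2 fold change was −0.07 in parental cells (95% interval −0.15 to 0.00, edgeR adjusted p = 0.124) and 0.02 in resistant cells (95% interval −0.05 to 0.09, edgeR adjusted p = 0.704), and the groups overlapped in both. Without replicate 3 of oxamate-treated parental cells, which was its highest and 1 of those high in MALAT1, the parental value was −0.12 (edgeR adjusted p = 0.00585) and the difference of responses went from 0.09 (edgeR adjusted p = 0.172) to 0.15 (edgeR adjusted p = 0.0139). With library size alone the parental value was −0.15 (edgeR adjusted p = 0.00991) and the difference of responses 0.20 (edgeR adjusted p = 0.0147), both past the threshold.

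**Figure D2:**
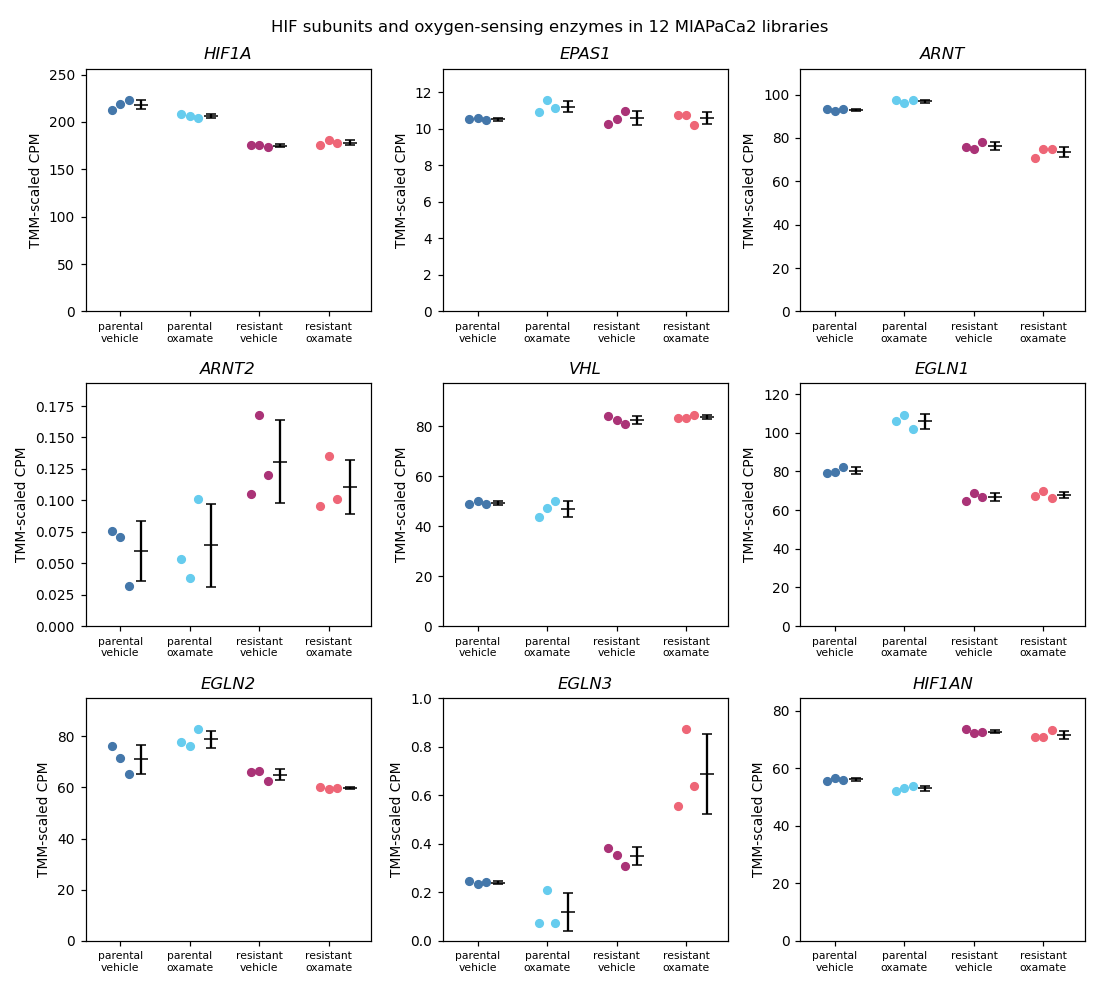
TMM-scaled CPM of the 9 genes in each of the 12 libraries; points are libraries, the bar beside them is the mean ± SD of 3, and each vertical axis starts at 0. VHL and HIF1AN are higher in all resistant libraries, HIF1A and ARNT lower, EGLN1 is raised in oxamate-treated parental cells, and EGLN3 and ARNT2 stay below 1 CPM.

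EGLN1 (chr1:231363751-231425044, minus strand) encodes PHD2, the main prolyl hydroxylase acting on HIF-1 alpha, and was the member with the clearest response to oxamate in parental cells. It measured 79.0, 79.9 and 82.5 CPM after vehicle and 106, 109 and 102 CPM after oxamate, and the groups did not overlap. EGLN1 rose by 0.40 on the log2 scale (1.32-fold, SE 0.03, edgeR adjusted p = 3.7e-08). In resistant cells it measured 64.8, 68.7 and 67.0 CPM after vehicle and 67.6, 69.7 and 66.3 CPM after oxamate. These libraries overlapped, and the log2 fold change was 0.02 (95% interval −0.04 to 0.09, edgeR adjusted p = 0.675). The responses differed by −0.37 (SE 0.05, edgeR adjusted p = 8.38e-06), a call that held in all alternatives run.

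Between the lines EGLN1 was lower in resistant cells, by −0.27 after vehicle (SE 0.03, edgeR adjusted p = 1.5e-06) and by −0.64 after oxamate (SE 0.03, edgeR adjusted p = 2.39e-11). The second value was 1.56-fold lower and past the study's fold threshold. Scaled by library size only, these differences were −0.05 (edgeR adjusted p = 0.143) and −0.32 (edgeR adjusted p = 8.81e-08), the latter under 1.5-fold.

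EGLN2 (chr19:40798996-40808433, plus strand) encodes PHD1, a nuclear prolyl hydroxylase. Parental libraries held 76.2, 71.6 and 65.1 CPM after vehicle and 77.7, 76.1 and 82.7 CPM after oxamate. Resistant libraries held 66.1, 66.3 and 62.5 CPM after vehicle and 60.1, 59.3 and 59.7 CPM after oxamate. The vehicle-treated parental libraries spread widely (SD 5.59 CPM) and overlapped both the treated parental and the vehicle-treated resistant ones.

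EGLN2 rose with oxamate in parental cells by 0.15 (SE 0.05, edgeR adjusted p = 0.0112). In resistant cells the value was −0.12 (SE 0.05, edgeR adjusted p = 0.0825). These responses differed by −0.27 (SE 0.07, edgeR adjusted p = 0.00352). EGLN2 was lower in resistant cells after oxamate by −0.40 (SE 0.05, edgeR adjusted p = 9e-07) and after vehicle by −0.13 (SE 0.05, edgeR adjusted p = 0.0182).

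The parental call was lost without replicate 3 of the vehicle group (0.09, edgeR adjusted p = 0.0515) or replicate 3 of the oxamate group (0.11, edgeR adjusted p = 0.0537), and with library size alone (0.08, edgeR adjusted p = 0.191). That scaling also ended the call for the difference of responses (−0.17, edgeR adjusted p = 0.0625) and for the lines after oxamate (−0.08, edgeR adjusted p = 0.154). The vehicle difference between the lines was lost without replicate 1 (−0.08, edgeR adjusted p = 0.127) or 2 (−0.12, 0.0541) of vehicle-treated parental cells or replicate 3 of vehicle-treated resistant cells (−0.10, 0.0809) and with upper-quartile factors (−0.06, 0.284), and it turned to 0.09 with library size alone. In resistant cells EGLN2 passed the threshold in several alternatives. Every same-number pair of the resistant groups correlated over 0.1, as did some pairs of different number. In a fit of these 6 libraries with the replicate number as a block the value was −0.12 (edgeR adjusted p = 0.00306). Those libraries without the block gave −0.12 (edgeR adjusted p = 0.0086) and no filter on low counts −0.13 (edgeR adjusted p = 0.0429). The fit without both libraries high in MALAT1 gave −0.15 (edgeR adjusted p = 0.0221), and there the resistant groups no longer overlapped in MALAT1. EGLN2 also passed without replicate 1 (edgeR adjusted p = 0.0428) or 3 (0.0282) of vehicle-treated or replicate 3 of oxamate-treated (0.0496) parental cells.

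EGLN2 shares 2012 exon bases with the readthrough gene RAB4B-EGLN2, whose estimated counts reached at most 129 in a library and at most 3.19% of those of EGLN2.

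EGLN3 (chr14:33924231-34462774, minus strand) encodes PHD3 and was barely expressed, yet it had the widest range among the tested members. Its counts were 26, 23 and 15 in vehicle-treated and 4, 11 and 5 in oxamate-treated parental libraries. They were 22, 21 and 18 in vehicle-treated and 29, 45 and 38 in oxamate-treated resistant libraries, in spite of the lower depth of those libraries. In CPM these were 0.233 to 0.245, 0.0715 to 0.209, 0.308 to 0.384 and 0.555 to 0.871. No group overlapped another.

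EGLN3 fell with oxamate in parental cells by 1.07 on the log2 scale (SE 0.37, edgeR adjusted p = 0.0205) and rose in resistant cells by 0.98 (SE 0.26, edgeR adjusted p = 0.0169). The responses differed by 2.05 (SE 0.45, edgeR adjusted p = 0.00162). After oxamate EGLN3 was 5.97-fold higher in resistant cells (log2 2.58, SE 0.33, edgeR adjusted p = 2.05e-06). After vehicle the difference was 0.53 (95% interval −0.04 to 1.10, edgeR adjusted p = 0.108), and with library size alone it was 0.75 (edgeR adjusted p = 0.028).

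The fall in parental cells was lost without replicate 1 (−0.84, edgeR adjusted p = 0.0865) or 3 (−0.78, 0.113) of the oxamate group, and without both libraries high in MALAT1 (−0.78, 0.117). The rise in resistant cells was lost without replicate 2 of the vehicle group (0.99, edgeR adjusted p = 0.0531) or of the oxamate group (0.78, 0.0801), and DESeq2 gave EGLN3 no adjusted p there. The difference of responses and the difference between the lines after oxamate kept their calls in each alternative in which EGLN3 was tested.

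HIF1AN (chr10:100529072-100559998, plus strand) paralleled VHL in being higher in all resistant libraries. Parental libraries held 55.7, 56.7 and 56.1 CPM after vehicle and 52.2, 53.0 and 53.7 CPM after oxamate. Resistant libraries held 73.5, 72.3 and 72.5 CPM after vehicle and 70.9, 70.9 and 73.3 CPM after oxamate. The differences between the lines were 0.37 after vehicle (1.30-fold, SE 0.02, edgeR adjusted p = 1.16e-09) and 0.44 after oxamate (1.35-fold, SE 0.03, edgeR adjusted p = 1.3e-10). Both held in all alternatives run.

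With oxamate HIF1AN fell slightly in parental cells, by −0.08 (SE 0.02, edgeR adjusted p = 0.00931), with no overlap, and the value in resistant cells was −0.02 (95% interval −0.07 to 0.03, edgeR adjusted p = 0.563). The difference of responses was 0.06 (edgeR adjusted p = 0.17), and 0.17 with library size alone (edgeR adjusted p = 0.00264). HIF1AN and the oppositely oriented gene NDUFB8 share 325 exon bases, which is 2.33% of the exon bases of HIF1AN. NDUFB8 had 5850 to 16113 counts a library and HIF1AN 2785 to 5909. Without knowledge of the strand setting, reads from that stretch cannot be told apart.

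**Figure D3:**
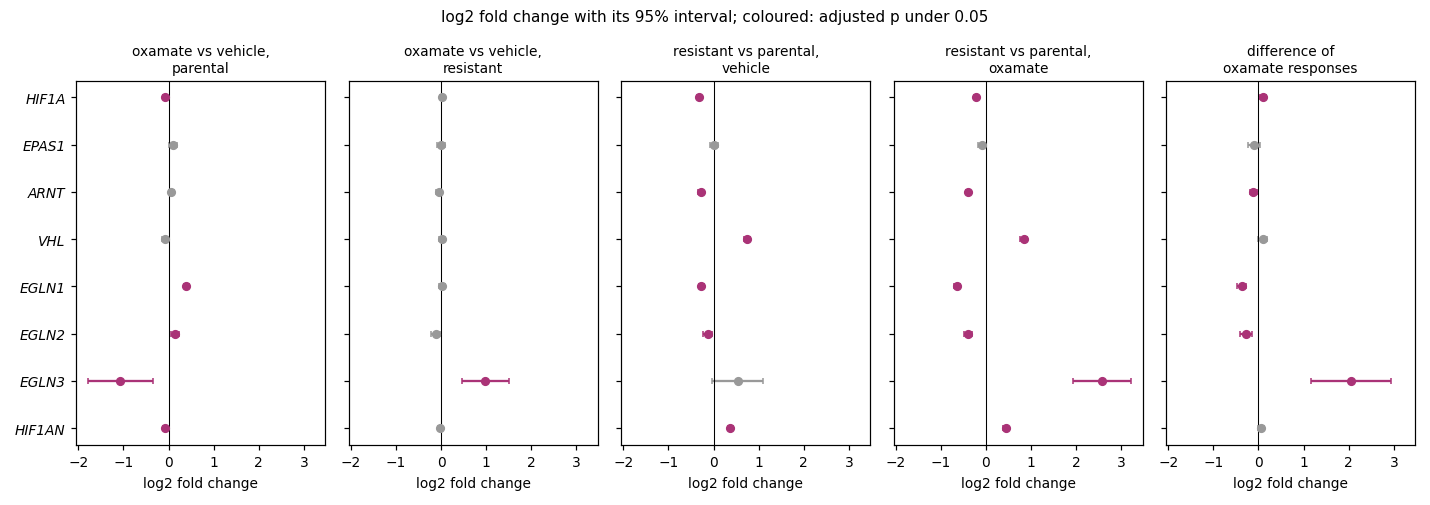
log2 fold change of the 8 tested genes in 5 comparisons. Points are edgeR estimates, bars are 95% intervals from the normal quantile, narrower than the test implies, and coloured points have an adjusted p under 0.05. VHL and HIF1AN lie to the right of 0 in both line comparisons, EGLN1 lies at 0.40 with oxamate in parental cells and at 0.02 in resistant cells, and EGLN3 reaches 2.58 in resistant against parental cells after oxamate.

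Counted together, 5 of the 8 tested members changed with oxamate in parental cells (62.5%), when 58.7% of all 14582 genes did. EGLN1 and EGLN2 were higher (2 of 8, against 28.3% of all genes), and HIF1A, EGLN3 and HIF1AN lower (3 of 8, against 30.4%). Of the 8, 1 (EGLN3) passed the study's threshold of an unadjusted p under 0.05 with a fold over 1.5, which 9.88% of all genes passed. In resistant cells 1 of 8 changed (12.5%, EGLN3), against 21.5% of all genes in either direction, 9.01% upward and 12.5% downward. That gene also passed the study's threshold (1 of 8), against 2.50% of all genes. With the replicate block on the resistant libraries alone, 2 members changed (EGLN2 and EGLN3), against 33.5% of all genes. The share at the adjusted p was near the background in parental cells. In resistant cells it rested on 1 gene of 8 and varied between alternatives, so it is not read as below the background. With 8 members a single gene also sets the share at the study's threshold.

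Between the lines, 6 of 8 changed after vehicle, against 75.7% of all genes, and 7 of 8 after oxamate (87.5%), against 80.3%. After vehicle VHL and HIF1AN were higher, against 38.4% of all genes, and HIF1A, ARNT, EGLN1 and EGLN2 lower, against 37.3%. After oxamate VHL, HIF1AN and EGLN3 were higher, against 40.6% of all genes, and HIF1A, ARNT, EGLN1 and EGLN2 lower, against 39.7%. VHL was the member past the study's threshold after vehicle, which 23.4% of all genes passed, and VHL, EGLN1 and EGLN3 passed it after oxamate, against 34.3%. The responses to oxamate differed between the lines for 5 of 8 (HIF1A, ARNT, EGLN1, EGLN2 and EGLN3), against 44.2% of all genes. HIF1A and EGLN3 differed upward, against 22.7% of all genes, and ARNT, EGLN1 and EGLN2 downward, against 21.4%. EGLN3 differed by over 1.5-fold, against 7.52% of all genes. With 8 members these shares are a description. The line comparisons share libraries with the oxamate comparisons, so their values are set side by side here and not counted as separate evidence.

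Ratios of members within a library do not depend on how libraries are scaled. They were tested for 5 pairs and 2 factors with an exact two-sided permutation test over the libraries, permuting the line within treatments or the treatment within lines, and adjusted over these 10 tests. The smallest p this design allows is 0.005. HIF1A counts were 20.2 to 21.3 times those of EPAS1 in vehicle-treated and 17.9 to 19.1 times in oxamate-treated parental libraries, and 15.8 to 17.1 and 16.3 to 17.5 times in the resistant ones. The log2 ratio was lower in resistant cells by −0.23 (exact permutation, adjusted p = 0.0167). HIF1A counts per ARNT count were 2.35 ± 0.0584, 2.13 ± 0.0277, 2.29 ± 0.0712 and 2.42 ± 0.0554 (SD, n = 3) in the order parental vehicle, parental oxamate, resistant vehicle and resistant oxamate. Neither the line (0.08, exact permutation, adjusted p = 0.158) nor oxamate (−0.03, exact permutation, adjusted p = 0.583) passed the threshold for that pair. The line value averages over both treatments and the oxamate value over both lines, so opposite differences cancel. With oxamate the mean ratio was lower in parental cells (2.13 against 2.35) and higher in resistant cells (2.42 against 2.29). The treated and vehicle libraries did not overlap in either line. The averaged oxamate test therefore cannot show whether the ratio responded within a line.

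Among the prolyl hydroxylases the balance differed by line. EGLN3 counts were 0.0673% to 0.310% of EGLN1 counts in parental and 0.460% to 1.25% in resistant libraries, a log2 difference of 2.03 (exact permutation, adjusted p = 0.0167). EGLN2 counts per EGLN1 count were 0.789 to 0.964 after vehicle and 0.696 to 0.810 after oxamate in parental libraries, and 0.933 to 1.02 and 0.850 to 0.901 in resistant libraries. That ratio was higher in resistant cells by 0.19 on the log2 scale and lower after oxamate by −0.19 (both exact permutation, adjusted p = 0.02). ARNT2 counts were 0.0345% to 0.104% of ARNT counts in parental and 0.134% to 0.225% in resistant libraries, a log2 difference of 1.30 (exact permutation, adjusted p = 0.0167), at 2 to 10 ARNT2 counts a library.

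The ratio of HIF1A to VHL was chosen after its values were seen and has no test. There were 4.34 to 4.56 HIF1A counts per VHL count in vehicle-treated parental libraries and 4.08 to 4.79 in oxamate-treated ones. In resistant libraries there were 2.12 ± 0.0271 and 2.12 ± 0.0355 (SD, n = 3). EGLN1 counts per VHL count, chosen in the same way, averaged 1.63 and 2.26 in the parental groups and 0.810 in both resistant groups.

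**Figure D4:**
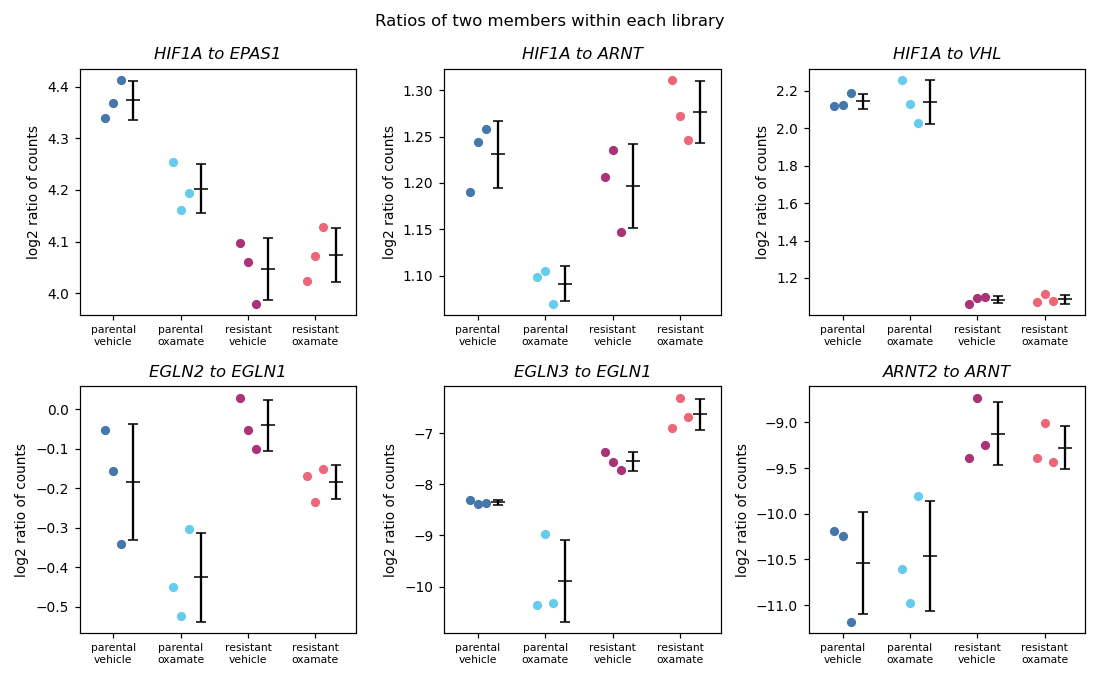
log2 ratio of the counts of 2 members in each of the 12 libraries, by group; points are libraries and the bar beside them is the mean ± SD of 3. HIF1A to VHL is 1.06 to 1.11 in the resistant libraries and 2.03 to 2.26 in the parental ones, EGLN3 to EGLN1 is higher in all resistant libraries, and the vertical axes do not start at 0.

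The genes around the members were taken from 3 lists. Of 30 partners and modulators of HIF (ligase subunits, coactivators, chaperones and the like), 29 were tested. With oxamate 7 were higher and 11 lower in parental cells (median −0.05), and 1 was higher and 3 lower in resistant cells (median −0.03), or 3 and 8 with the replicate block on the resistant libraries alone. Resistant against parental cells, 9 were higher and 16 lower after vehicle (median −0.12) and likewise 9 and 16 after oxamate (median −0.24). Of all genes, 28.3% were higher and 30.4% lower with oxamate in parental cells, and 9.01% and 12.5% in resistant cells. With that block 33.5% were called. Between the lines 38.4% of all genes were higher and 37.3% lower after vehicle, and 40.6% and 39.7% after oxamate. The medians of all genes in these 4 comparisons were 0.00, 0.00, 0.03 and 0.01. With library size alone the list's medians between the lines turned to 0.10 and 0.09, and that for oxamate in resistant cells to 0.00302.

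EP300, the coactivator p300 whose binding HIF1AN prevents, was at 45.8 and 26.9 CPM in parental cells after vehicle and oxamate, a fall by 0.76 on the log2 scale (edgeR adjusted p = 1.03e-08). After oxamate it was higher in resistant cells by 1.61 (edgeR adjusted p = 1.67e-13). CITED4, which binds p300 in competition with HIF, fell by 0.89 in parental cells (edgeR adjusted p = 1.24e-08). The LIM protein AJUBA, which bridges VHL and prolyl hydroxylases, was higher in resistant cells after oxamate by 1.44 (edgeR adjusted p = 4.8e-13). Its relative WTIP fell by 0.28 with oxamate in resistant cells (edgeR adjusted p = 0.000328).

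WSB1, a ubiquitin ligase subunit reported to act on VHL protein, was higher in vehicle-treated resistant than in parental cells by 1.17 (edgeR adjusted p = 6.27e-06). WSB1 was highest within its groups in the libraries high in MALAT1, at 28.3 against 16.4 and 17.3 CPM in oxamate-treated parental cells and 42.8 against 34.0 and 32.0 CPM in vehicle-treated resistant cells. Without those libraries the difference between the lines was 1.04 (edgeR adjusted p = 1.51e-09). WSB1 rose with oxamate in resistant cells by 0.57 (edgeR adjusted p = 0.0143). That call was lost without replicate 1 (edgeR adjusted p = 0.062) or 2 (0.0714) of the vehicle group or replicate 1 (0.063) or 3 (0.0502) of the oxamate group. Without both libraries high in MALAT1 the value was 0.71 (edgeR adjusted p = 2.99e-06). The resistant groups no longer overlapped in MALAT1 there, so that fit cannot separate oxamate from the MALAT1 level. The chaperone gene HSP90AA1, whose product binds HIF-1 alpha, was lower in vehicle-treated resistant cells by −0.89, at 2341 against 4328 CPM (edgeR adjusted p = 7.49e-14).

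Known HIF target genes lay mostly on one side of 0 in parental cells and between the lines. Of 40 listed, 38 were tested. With oxamate 35 were higher and 1 lower in parental cells (median 0.63), and 19 were higher and 12 lower in resistant cells (median 0.15). Resistant against parental cells, 6 were higher and 28 lower after vehicle (median −0.48), and 2 higher and 36 lower after oxamate (median −0.94). The responses differed for 35 of the 38, 2 upward and 33 downward, against 22.7% and 21.4% of all genes. Of all genes, 28.3% were higher and 30.4% lower with oxamate in parental cells, and 9.01% and 12.5% in resistant cells. Between the lines the shares were 38.4% and 37.3% after vehicle, and 40.6% and 39.7% after oxamate. With library size alone the 5 medians kept their directions, at 0.56, 0.18, −0.26, −0.61 and, for the difference of responses, −0.42. The list was written with earlier results of these data known and is no independent evidence of its direction.

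In parental cells the glycolytic gene ALDOC went from 79.1 to 168.0 CPM with oxamate (log2 1.09, edgeR adjusted p = 1.14e-12) and MIR210HG, the host transcript of a hypoxia-induced miRNA, rose by 1.38 (edgeR adjusted p = 6.53e-08). ADM, which encodes the vasodilator adrenomedullin, fell with oxamate in resistant cells by 1.96 (edgeR adjusted p = 1.3e-11), as did ANKRD37 by 1.41 (edgeR adjusted p = 6.63e-11). After oxamate these genes were lower in resistant than in parental cells, ADM by −3.33 (4.23 against 42.7 CPM, edgeR adjusted p = 6.16e-17) and ANKRD37 by −2.82 (edgeR adjusted p = 6.84e-17). ANGPTL4, which encodes a lipase inhibitor, was lower in vehicle-treated resistant cells by −1.33 (edgeR adjusted p = 2.06e-15), whereas MIR210HG was higher by 1.39 (edgeR adjusted p = 2.07e-08). CA9, named after its values were seen, carried under 1 CPM in all groups, and the points farthest from the others in 2 of the comparisons are its values (2.56 and −2.82).

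Set beside these, the known HIF targets among the members did not move alike. With oxamate in parental cells EGLN1 rose by 0.40 and EGLN3 fell by 1.07, while the median target was at 0.63. The fall of EGLN3 rested on 4, 11 and 5 counts in the treated libraries. Its call was lost without replicate 1 or replicate 3 of them. Between the lines after oxamate EGLN1 stood at −0.64 and EGLN3 at 2.58, while the median target was at −0.94. Across the 8 tested members the median was −0.01 for oxamate in parental cells, 0.01 in resistant cells, −0.06 between the lines after vehicle and −0.15 after oxamate.

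Other dioxygenases that use oxygen, iron and 2-oxoglutarate, as well as the thiol dioxygenase ADO, made up the last list, with 20 of 21 tested. With oxamate 7 were higher and 8 lower in parental cells (median −0.02), and 5 higher and 4 lower in resistant cells (median 0.03). Between the lines 10 were higher and 7 lower after vehicle (median 0.04), and 11 higher and 8 lower after oxamate (median 0.23). The shares of all genes higher and lower in these comparisons were 28.3% and 30.4%, 9.01% and 12.5%, 38.4% and 37.3%, and 40.6% and 39.7%. The histone demethylase gene KDM4B rose with oxamate in parental cells by 0.51 (edgeR adjusted p = 6.01e-10), and C14orf169 (RIOX1), a ribosomal oxygenase gene, fell by 0.66 (edgeR adjusted p = 2.29e-07). JMJD6, which encodes a lysyl hydroxylase, was lower in resistant cells by −0.89 after vehicle (edgeR adjusted p = 5.79e-13) and −1.43 after oxamate (edgeR adjusted p = 1.66e-15), and it fell with oxamate in resistant cells by 0.29 (edgeR adjusted p = 3.12e-05). The DNA demethylases TET2 and TET3 were called upward, TET2 in resistant against parental cells by 0.83 after vehicle (edgeR adjusted p = 3.9e-09) and 0.99 after oxamate (edgeR adjusted p = 3.81e-10), and TET3 with oxamate in resistant cells by 0.24 (edgeR adjusted p = 0.00664).

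**Figure D5:**
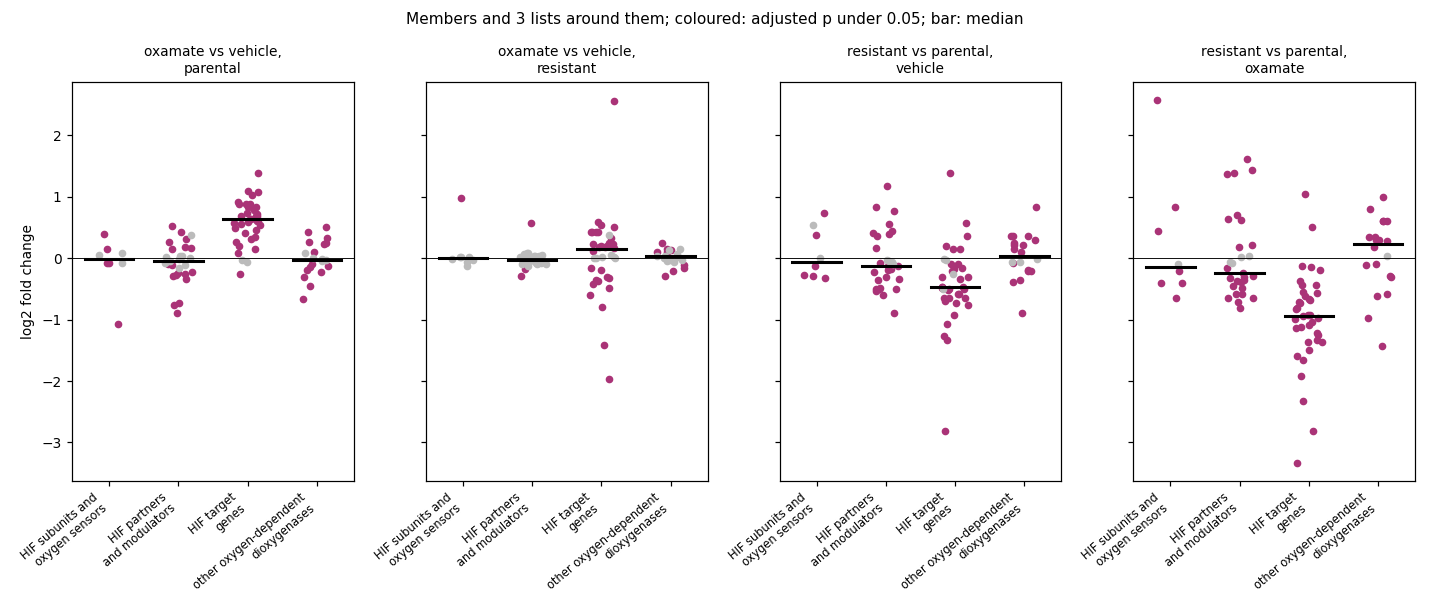
log2 fold change of the members and of the tested genes of 3 lists in 4 comparisons; each point is a gene, coloured where its adjusted p is under 0.05, and the bar is the median. The HIF target genes have medians of 0.63 and 0.15 for oxamate and −0.48 and −0.94 between the lines, while the medians of the members run from −0.15 to 0.01.

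For the 3 tested members with the widest range of group means, the genes whose 4 centred group means of log2 CPM lay closest were sought among genes of at least 1 CPM. Closest to VHL were ADCY5 and MGAT4A, with root mean square differences of 0.00646 and 0.0174, and 326 of 12425 genes lay within 0.1. Closest to EGLN1 were MANBA (0.0153) and NAT14 (0.0174), with 668 genes within 0.1. For EGLN3 the closest were LINC00641 (0.115) and ZNF321P (0.133), and none of 12426 genes lay within 0.1. These distances rest on 4 group means from the same libraries.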

How the data were processed

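RNA of 12 MIAPaCa2 samples was sequenced, and groups were taken from the sample labels. The study's methods say that total RNA was extracted and that mRNA was enriched from it with oligo(dT) beads. According to the study's methods and the submitters' processing notes, the authors mapped reads with Bowtie2 2.1.0 and estimated expression with RSEM 1.2.15; hg38 is the genome named. A second route, STAR with featureCounts, is described there too, but it would give whole numbers. The deposited values are expected counts per gene symbol, not normalized, of which 11.6% are not whole. They were rounded and fitted together in R 4.3.3 with edgeR 4.0.16 (filterByExpr, TMM factors, glmQLFit and glmQLFTest on 4 group means), with Benjamini-Hochberg adjustment over 14582 genes. Standard errors are the absolute log2 fold change divided by the square root of F, and 95% intervals take the normal quantile of it. These intervals are narrower than the test implies. That of EPAS1 with oxamate in parental cells, 0.0025 to 0.179, excludes 0 at an edgeR unadjusted p of 0.0618. "Rose", "fell" and "changed" mean an adjusted p under 0.05. The adjusted p-values of list genes come from the same fit. For ratios 0.5 was added to each count. The analysis was tested on simulated data.

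The members and lists were chosen with earlier results of these data known. All members were named, and from each list and comparison the 2 genes with the largest change among those called with a mean of at least 1 CPM. Positions and lengths are from GENCODE release 29 (GRCh38), promoter letters from RefSeq (GRCh38.p14), where VHL and ARNT2 were not matched. Alternatives were other scalings and filters, DESeq2 1.42.0, limma-voom (limma 3.58.1), a replicate block, only the groups compared, and leaving out libraries, among them both libraries high in MALAT1. Replicate numbers come from the labels. Every correlation of same-number libraries was over 0.1 (0.11 to 0.44) between the resistant groups and between no others. There replicates 1 and 2 of different groups correlated at 0.17 in both directions, above the 0.11 of the same-number pair 1. Of 12 libraries, 3 correlated best with a library of their own number. Pairing by number is thus not established. The sum of EGLN2 and its readthrough gene and the block on resistant libraries alone were chosen after seeing the data.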

Additional observations from a re-analysis of the deposited data

Results flagged for a closer look

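The responses to oxamate of the parental and the resistant line were compared by their contrast with edgeR at an adjusted p under 0.05. They differed for 5 of the 8 tested members, against 44.2% of all genes. Upward and downward, they differed for 7 and 8 of 29 partners and modulators, 2 and 33 of 38 HIF targets, and 7 and 6 of 20 other dioxygenases. Of all genes, 22.7% differed upward and 21.4% downward. From each list only the 2 called genes with the largest difference and a mean of at least 1 CPM are given here. Resistant minus parental, the log2 difference of the response was 0.10 for HIF1A, −0.11 for ARNT, −0.37 for EGLN1, −0.27 for EGLN2 and 2.05 for EGLN3. It was 0.94 for CITED4 and 0.84 for EP300 among the partners and modulators. Among the HIF targets it was −2.27 for ADM and −2.09 for ANKRD37, and among the other dioxygenases −0.59 for ALKBH5, an RNA demethylase gene, and 0.81 for C14orf169. With library size alone the differences for ARNT (−0.00965) and EGLN2 (−0.17) missed the threshold. Those for VHL (0.20, edgeR adjusted p = 0.0147) and HIF1AN (0.17, edgeR adjusted p = 0.00264) passed it under that scaling.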

How the results depend on the processing

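The 8 tested members in 5 comparisons gave 40 log2 fold changes, of which 18 kept their direction and their side of the threshold in every alternative run. Library size alone moved the median of all genes to −0.07, 0.03, 0.24, 0.34 and, for the difference of responses, 0.10. It turned ARNT with oxamate in parental cells to −0.014, EPAS1 and HIF1AN with oxamate in resistant cells to 0.026 and 0.00897, EGLN2 between the lines after vehicle to 0.088, EPAS1 and HIF1A between the lines after oxamate to 0.24 and 0.11, and the EPAS1 difference of responses to 0.00949. Upper-quartile factors gave EPAS1 0.019 and HIF1AN 0.00182 with oxamate in resistant cells, and a minimum mean count of 25 gave EPAS1 0.00520. With 1 library left out EPAS1 ran from −0.028 to 0.022 with oxamate in resistant cells and from −0.018 to 0.032 between the lines after vehicle, and it was 0.021 and −0.018 without both libraries high in MALAT1.

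Members changed with oxamate in resistant cells numbered 2 without the filter, with only the groups compared and without both libraries high in MALAT1. They numbered 0 with DESeq2 (no adjusted p for EGLN3), 0 with a minimum mean count of 25, which removed EGLN3, and 0 to 2 with 1 library left out. Past the study's threshold, members between the lines after vehicle numbered 3 with library size alone and 2 without the filter. For oxamate in parental cells they numbered 0 with a minimum mean count of 25 and without both libraries high in MALAT1, and 0 to 1 with 1 library left out. With that minimum they also numbered 0 for oxamate in resistant cells and for the difference of responses.

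Deviations of same-number libraries correlated at −0.27 to 0.44, with 9 of 18 pairs over 0.1. Every same-number pair was over 0.1 in the resistant line alone, where some pairs of different number were too. There the replicate block on the 6 resistant libraries, an alternative chosen after seeing the data, called 2 members for oxamate and changed no other member's call. With the replicate block on all libraries the counts of members changed stayed at 5, 1, 6, 7 and 5. The ratios kept their values, −0.23 for HIF1A to EPAS1, 1.30 for ARNT2 to ARNT, 2.03 for EGLN3 to EGLN1 and 0.19 for EGLN2 to EGLN1 by line and −0.19 for EGLN2 to EGLN1 by oxamate, but missed the threshold, in a design too small to pass it after adjustment. With 1 library left out, EGLN2 to EGLN1 ran from 0.15 to 0.22 by line and from −0.23 to −0.16 by oxamate, each with values that missed the threshold, and ARNT2 to ARNT by oxamate from −0.20 to 0.089. Depth limits ARNT2 and EGLN3, at 2 to 45 counts a library. Unless stated, the causes were not tested.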
